A study of Homo sapiens with 6 samples.

Results

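Biliary and progenitor markers were followed in RNA-seq data of Huh7, an established line of human hepatocellular carcinoma, after knockdown of ABL1. The set held 9 genes, taken by symbol as KRT19, CLDN4, EPCAM, TFF3, ANXA4, CFTR, SOX9, DLK1 and LIN28B. Each was represented by 1 row, that is 1 RefSeq transcript, of the 10191 rows in the deposited table. All 9 rows had enough reads to be tested. CFTR reached the minimum mean of 10 normalized counts only through its level in the knockdown libraries.

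There were 3 libraries of cells carrying an shRNA against ABL1 and 3 of cells carrying a scrambled shRNA. ABL1 encodes a non-receptor tyrosine kinase. Both groups were Huh7 cells grown in DMEM, had passed puromycin selection and were sampled 1 week after it, so neither group shows Huh7 cells without a hairpin vector. Whether more than 1 hairpin was used, whether the cells were clones or pools, and whether replicates were separate cultures, the sources used here do not say. P-values therefore measure the spread among these 6 libraries, and that spread may be technical. In bulk RNA, fewer cells expressing a gene and less RNA per cell cannot be told apart.

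Hepatocytes and the cholangiocytes that line bile ducts arise from a common fetal precursor, the hepatoblast. Cholangiocytes form a sealed, secretory duct epithelium with simple-type keratins, tight junctions, trefoil peptides and an apical chloride channel, and SOX9 is a transcription factor of that lineage. DLK1 and LIN28B belong to the fetal programme: DLK1 is a surface protein of hepatoblasts, and LIN28B is an RNA-binding protein that blocks maturation of let-7 microRNAs. In liver tumours, biliary and fetal genes are read as markers of a less mature or mixed phenotype.

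RefSeq promoter windows (GRCh38.p14, from 250 bases before to 50 after a start site) were found for 4 of the 9 genes, CLDN4, CFTR, ANXA4 and LIN28B. Each of these genes is shown, and no window was found for the other markers. ANXA4 and LIN28B had a pair of windows each, and the one in which the counted transcript begins is given. All 4 windows lie on the plus strand, at chr7:73830746-73831045 for CLDN4, chr7:117479775-117480074 for CFTR, chr2:69741884-69742183 for ANXA4 and chr6:104956857-104957156 for LIN28B. Capitals mark matches, on either strand, to 7 motifs that were searched, those of RBPJ, TEAD, SOX and AP-1 factors, the E-box, the TATA box and the GC box, whose letters follow after the windows.
CLDN4: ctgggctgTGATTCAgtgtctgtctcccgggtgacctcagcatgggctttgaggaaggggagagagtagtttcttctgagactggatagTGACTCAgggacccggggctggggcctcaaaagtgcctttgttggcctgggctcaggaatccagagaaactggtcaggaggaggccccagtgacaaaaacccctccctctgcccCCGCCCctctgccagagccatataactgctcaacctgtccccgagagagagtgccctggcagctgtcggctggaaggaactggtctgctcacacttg
CFTR: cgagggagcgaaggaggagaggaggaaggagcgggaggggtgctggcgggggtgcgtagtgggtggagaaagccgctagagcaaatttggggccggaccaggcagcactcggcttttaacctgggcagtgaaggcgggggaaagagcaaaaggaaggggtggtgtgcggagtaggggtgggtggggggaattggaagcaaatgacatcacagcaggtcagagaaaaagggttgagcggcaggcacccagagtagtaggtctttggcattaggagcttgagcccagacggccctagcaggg
ANXA4: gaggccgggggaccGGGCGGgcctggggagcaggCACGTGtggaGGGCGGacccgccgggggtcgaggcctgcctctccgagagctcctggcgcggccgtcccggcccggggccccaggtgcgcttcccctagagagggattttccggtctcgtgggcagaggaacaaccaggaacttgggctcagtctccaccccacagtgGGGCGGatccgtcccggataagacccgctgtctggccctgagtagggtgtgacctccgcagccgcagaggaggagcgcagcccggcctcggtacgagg
LIN28B: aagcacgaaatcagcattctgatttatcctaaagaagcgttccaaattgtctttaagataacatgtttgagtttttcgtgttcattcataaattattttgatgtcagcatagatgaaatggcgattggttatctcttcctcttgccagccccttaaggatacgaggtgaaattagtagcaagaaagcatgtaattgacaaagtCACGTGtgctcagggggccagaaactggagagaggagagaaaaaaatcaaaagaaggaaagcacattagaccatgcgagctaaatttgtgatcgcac

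The CLDN4 window held a pair of AP-1 matches that begin at positions -242 and -161 from the start site of the window and a GC box match at -47. The LIN28B window held 1 E-box match at -47. In the ANXA4 window an E-box match lay at -216 and GC box matches at -236, -206 and -48. On the same scale the counted transcripts begin at -133 for CLDN4, -59 for LIN28B and -160 for ANXA4. The matches at -47 and -48 thus lie after those starts. None of the 7 motifs was spelled out in the CFTR window, which says nothing about the factors themselves. Among 35114 RefSeq promoter windows of the same length, the AP-1 letters TGANTCA were present in 7.71%. The E-box, searched as CACGTG, was present in 7.26%, and the GC box, searched as GGGCGG, in 45.0%. For RBPJ the letters TGGGAA were found in 24.0% of windows, and for TEAD factors GGAATG was found in 14.0%. The SOX letters AACAAT were found in 10.1% and the TATA box, searched as TATAAA, in 11.5%. No match overlapped another in these 4 windows. Their GC content was 72.0% for ANXA4, 60.7% for CFTR, 59.0% for CLDN4 and 39.0% for LIN28B, against a median of 58.7% and quartiles of 47.0% and 68.0% over all windows. The matches are a description of the letters and were not related to the expression values.

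The knockdown libraries held 6651413 to 7952645 reads and the scrambled libraries 7713451 to 10487862, recovered from the deposited signal. ABL1 was present as 2 transcripts. NM_007313 had 13.7, 10.2 and 9.28 normalized counts in the knockdown and 73.4, 71.7 and 71.3 in the scrambled libraries (log2 change -2.62, limma adjusted p = 4.11e-06). The other, NM_005157, reached the minimum mean only through the knockdown libraries and went the other way, with 17.6, 19.2 and 24.8 in the knockdown and 9.17, 6.72 and 10.3 in the scrambled libraries (log2 change 1.15, limma adjusted p = 0.0180). Its call was lost without knockdown replicate 3 (adjusted p = 0.0747) or scrambled replicate 2 (adjusted p = 0.0501). The labelled cell type was matched by its liver proteins: albumin (ALB) had 58573 to 67412 normalized counts in the knockdown and 77902 to 87899 in the scrambled libraries, and alpha-fetoprotein (AFP) had 202986 to 236842 in the knockdown and 214100.1 to 256250.1 in the scrambled libraries. Of 14 tested hepatocyte markers 7 were lower, such as RBP4 (log2 change -1.16) and APOA2 (-0.97), and FGG (0.68) was higher. Among all tested transcripts 27.4% were lower and 24.5% higher by limma. These marker counts depended on the processing. Under the alternatives that were run, 4 to 7 hepatocyte markers were called lower and 0 to 4 higher. The FGG call was lost without knockdown replicate 2 (adjusted p = 0.111) or scrambled replicate 1 (adjusted p = 0.102). Markers of other cell types also differed, in both directions within each list. Of 6 tested of 10 fibroblast and stellate markers, PDGFRA (log2 change 1.84), LUM (2.11), COL3A1 (1.54) and COL1A2 (0.62) were higher and COL1A1 (-1.03) was lower. Their summed level, most of it from COL1A2, was 13259 to 14609 normalized counts in the knockdown and 8912 to 9908 in the scrambled libraries. Of 4 tested of 7 endothelial markers, VWF (1.08) was higher and PECAM1 (-0.59), CDH5 (-1.14) and STAB2 (-1.03) were lower, with a sum of 125 to 147 in the knockdown and 176 to 204 in the scrambled libraries. The STAB2 call was lost with equal library totals (adjusted p = 0.0641) and without knockdown replicate 1 (0.0931) or 2 (0.0616) or scrambled replicate 1 (0.0563) or 2 (0.149). Of 3 tested of 8 immune markers, LAPTM5 (-2.39, above the minimum mean only through the scrambled libraries) and FCER1G (-0.79) were lower and LYZ (0.21) was higher. Their sum, nearly all of it from LYZ, was 6544 to 7489 in the knockdown and 5714 to 6331 in the scrambled libraries. The FCER1G call was lost with equal library totals (0.0640) and without knockdown replicate 1 (0.0550) or 3 (0.0633) or scrambled replicate 1 (0.0575) or 3 (0.0685). The LYZ call was lost without knockdown replicate 1 (0.0713) or 2 (0.105) or scrambled replicate 1 (0.110) or 3 (0.0674). None of these 13 tested markers was at 0 in any library, and the other markers of these lists were not analysed here. The part of these shifts in the results that follow was not tested.

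Most of the biliary and progenitor markers were lower after ABL1 knockdown. By limma, 6 of 9 fell (CLDN4, TFF3, KRT19, LIN28B, ANXA4 and SOX9), where 27.4% of all 8600 tested transcripts fell. CFTR and DLK1 rose, where 24.5% of all tested transcripts rose, and EPCAM did not pass the threshold. The share called was large throughout: 51.9% of all tested transcripts were called in either direction, and the groups did not overlap for 58.9%, against 7 of the 9 markers. Because the markers were chosen with earlier results of these data known, their counts and median are a description only. The markers' median log2 change was -0.52, beside 0.0018 for all tested transcripts with quartiles of -0.44 and 0.43. SOX9, ANXA4 and LIN28B thus lay only just beyond the lower quartile, while CLDN4 and TFF3 lay far below it. With libraries scaled to equal totals instead of the authors' factors, the median of all transcripts moved up by 0.17, and 19.8% fell and 34.5% rose; the same 6 markers still fell and the same pair still rose.

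**Figure D1:**
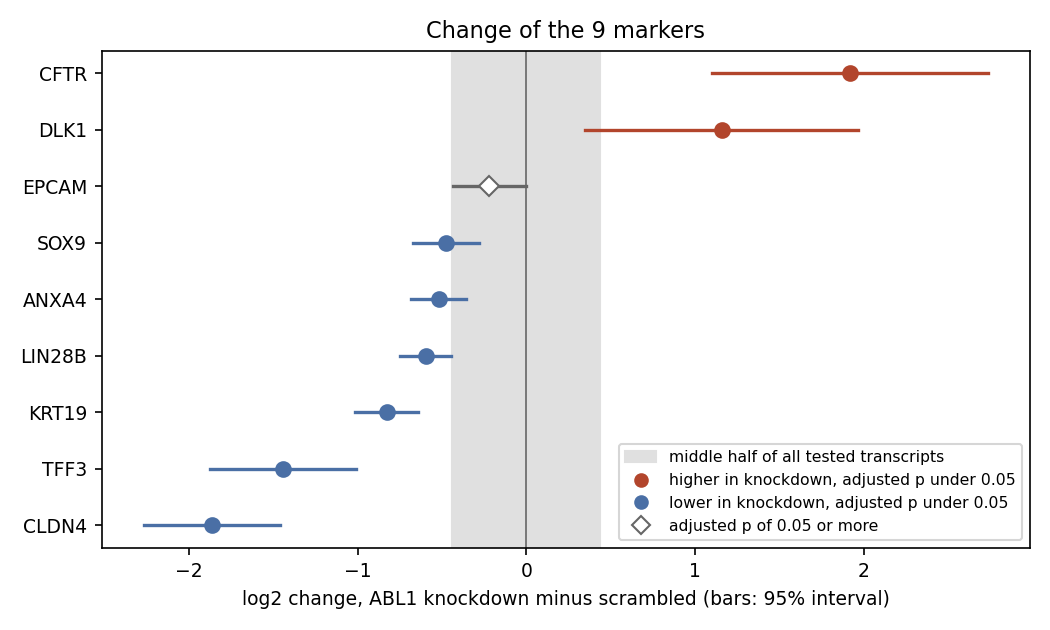
Log2 change of each marker (x axis, ABL1 knockdown minus scrambled, on log2 of normalized count + 1) with its 95% interval; the grey band spans the lower to the upper quartile of all 8600 tested transcripts. CLDN4 (-1.86) and TFF3 (-1.44) lie farthest to the left, CFTR (1.92) and DLK1 (1.16) to the right, and the EPCAM interval ends just below 0.

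The levels per transcript length spanned a wide range. In normalized counts per kilobase, KRT19 was the most abundant, with 1586 ± 48.7 in the knockdown and 2829.9 ± 336 in the scrambled libraries (SD, n = 3 each). ANXA4 followed with 1122 ± 10.5 per kilobase in the knockdown and 1613 ± 134 in the scrambled libraries, and SOX9 with 758 ± 54.3 in the knockdown and 1058 ± 113 in the scrambled libraries. LIN28B had 569 ± 13.2 per kilobase in the knockdown and 859.9 ± 47.1 in the scrambled libraries, and EPCAM 382 ± 45.7 in the knockdown and 444 ± 26.8 in the scrambled libraries. These 5 genes were well expressed, and each stood apart from its neighbours in this order, in both groups. TFF3 was far lower at 52.7 ± 12.8 per kilobase in the knockdown and 143 ± 19.3 in the scrambled libraries, and CLDN4 had 23.7 ± 4.89 in the knockdown and 86.9 ± 6.45 in the scrambled libraries. DLK1 had 20.2 ± 7.45 per kilobase in the knockdown and 9.42 ± 5.45 in the scrambled libraries, and CFTR was the lowest, at 4.89 ± 1.48 in the knockdown and 1.17 ± 0.327 in the scrambled libraries. The order of the means was the same in both groups, and the only neighbours whose ranges overlapped were CLDN4 and DLK1 in the knockdown libraries. There the medians stood the other way round, 21.0 per kilobase for CLDN4 and 21.8 for DLK1. The coefficient of variation between libraries was lowest for ANXA4 (0.938%) in the knockdown and LIN28B (5.47%) in the scrambled group, and highest for DLK1 (37.0% in the knockdown and 57.9% in the scrambled libraries).

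**Figure D2:**
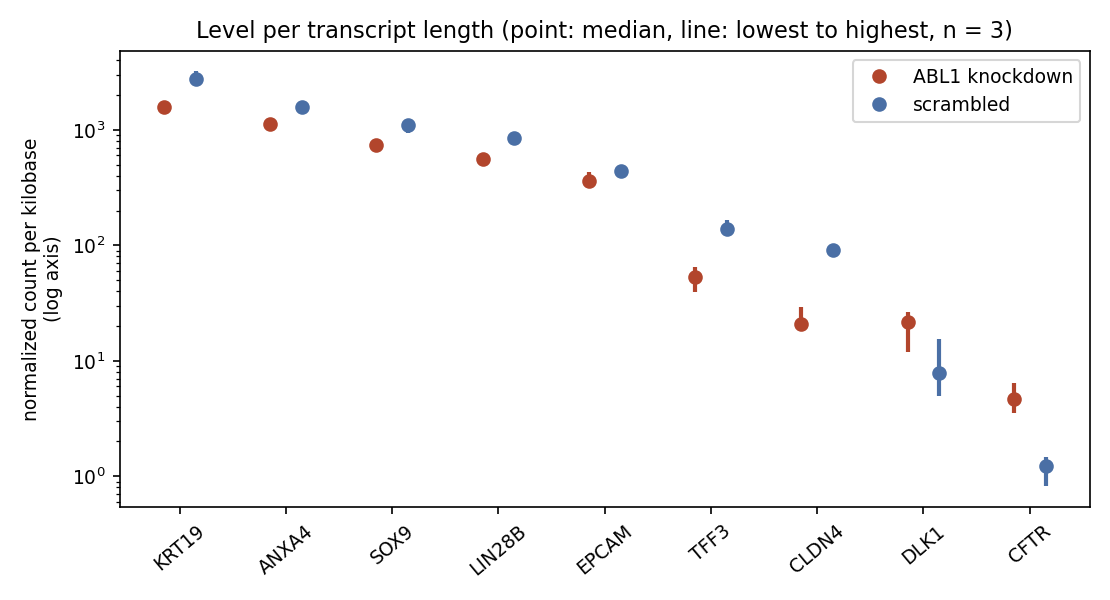
Normalized counts per kilobase of transcript (y axis, log scale) for each marker in ABL1 knockdown and scrambled libraries; points are medians and lines run from the lowest to the highest of 3 libraries. From KRT19 down to CFTR the order is the same by group mean, and only CLDN4 and DLK1 overlap, in the knockdown.

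Among the structural epithelial markers, KRT19 fell clearly. KRT19 encodes keratin 19, a cytoskeletal protein of ductal epithelium. The gene is on chromosome 17 at 41523617 to 41528308, minus strand (GRCh38, GENCODE 29), and the counted transcript NM_002276 has 6 exons. It had 2155, 2178 and 2282 normalized counts in the knockdown libraries, against 4448, 3817 and 3535 in the scrambled libraries. All 3 knockdown libraries lay close together and below every scrambled library, which were more widely spread. The ratio was 0.563 (log2 change -0.83, SE 0.09, 95% interval -1.02 to -0.64, limma adjusted p = 5.64e-06). GENCODE lists KRT19 pseudogenes, so reads may be shared with near-identical copies. The other tested keratins went the opposite way: KRT10 had 878, 1062 and 1004 in the knockdown and 654, 582 and 625 in the scrambled libraries (log2 change 0.66, adjusted p = 8.71e-05). KRT222, a keratin-like gene, rose by 1.27 (adjusted p = 0.000460). Of 12 listed keratins only these 2 were tested, and both rose, where 24.5% of all tested transcripts rose. Falls numbered 0, also at an unadjusted p under 0.05 and by limma voom. KRT7, KRT8 and KRT18 were not analysed here.

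CLDN4 showed the deepest fall of the 9. It encodes claudin-4, a tight junction protein that limits ion passage between cells, and is a single-exon gene on chromosome 7 at 73830863 to 73832693, plus strand. Its transcript NM_001305 had 53.8, 38.4 and 38.2 normalized counts in the knockdown and 166, 166 and 145 in the scrambled libraries. The groups were far apart, with 126 reads in all in the knockdown and 502 in the scrambled libraries. The ratio was 0.275 (log2 change -1.86, SE 0.19, 95% interval -2.27 to -1.46, limma adjusted p = 3.99e-06). Of 11 other tested claudins and tight junction genes 6 fell, where 27.4% of all tested transcripts fell. CLDN11 is among the 6 and reached the minimum mean only through the scrambled libraries. The median log2 change of the list was -0.31. CLDN3, a close relative that lies 60.6 kb before CLDN4 on the opposite strand, had 182, 157 and 148 in the knockdown and 624, 446 and 517 in the scrambled libraries (log2 change -1.69, adjusted p = 7.08e-07). The next tested gene on the other side, METTL27, 1.90 kb after CLDN4, also fell (-0.87, adjusted p = 0.00292).

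The remaining junction genes changed less or on thinner data. MARVELD3, a tight junction membrane protein, fell by 1.48 on the log2 scale (adjusted p = 0.000127), and the junctional adhesion molecule F11R fell by 0.48 (adjusted p = 0.000612). CLDN1 (-0.31, adjusted p = 0.00176) and CLDN6 (-0.31, adjusted p = 0.0106) fell by less. With equal library totals neither was called: CLDN1 had -0.14 (adjusted p = 0.0946) and CLDN6 -0.13 (adjusted p = 0.189), and CLDN1 had -0.10 (adjusted p = 0.253) after quantile normalization. CLDN11 was called lower (-2.44, adjusted p = 0.0202) although its groups overlapped and it reached the minimum mean only through the scrambled libraries, with 2.93, 10.2 and 0.0 normalized counts in the knockdown and 30.01, 7.85 and 24.4 in the scrambled libraries. That call was lost without knockdown replicate 3 (adjusted p = 0.0575), scrambled replicate 1 (0.0827) or scrambled replicate 3 (0.0787). Cingulin (CGN), a cytoplasmic junction protein, was the 1 member that rose (0.24, adjusted p = 0.0190), and its call was lost without knockdown replicate 1 (0.0980) or scrambled replicate 3 (0.0958).

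EPCAM was the 1 marker with no call. It encodes an epithelial adhesion protein that is high on hepatoblasts, progenitor cells and cholangiocytes, and lies on chromosome 2 at 47369148 to 47387034, plus strand, with 9 exons in NM_002354. It had 605, 749 and 623 normalized counts in the knockdown libraries and 720.3, 762 and 813 in the scrambled libraries. Knockdown replicate 2 lay within the scrambled range, and the other pair of knockdown libraries lay below it. The log2 change was -0.22 (SE 0.10, 95% interval -0.44 to -0.00295, limma adjusted p = 0.0833, unadjusted p = 0.0474). Without knockdown replicate 2 it was -0.32 and was called (adjusted p = 0.0170). With replicate number as a factor in the model it was also called, at -0.22 (adjusted p = 0.0462). The missing call thus turned on that library and on the model. With equal library totals the log2 change shrank to -0.05 (adjusted p = 0.733). The interval runs from nearly the size of SOX9's change to almost 0. Of 5 tested partners and proteases of EPCAM, CD9, a tetraspanin, had 317, 287 and 223 in the knockdown and 426, 458 and 479 in the scrambled libraries (log2 change -0.73, adjusted p = 0.000463). ST14, the gene of the protease matriptase, fell by 0.60 (adjusted p = 0.000939). The sheddases ADAM10 (0.22, adjusted p = 0.0245) and ADAM17 (0.32, adjusted p = 0.00889) rose slightly. The ADAM10 call was lost without knockdown replicate 1 (0.0739) or 2 (0.0846) or scrambled replicate 1 (0.0519) or 2 (0.0742), and that of ADAM17 without knockdown replicate 1 (0.0504). Of the 5 partners and proteases 2 thus fell and 2 rose, beside 27.4% and 24.5% of all tested transcripts, and their median log2 change was 0.06. The nearest tested transcript before EPCAM was the divergent non-coding LOC101927043, named EPCAM-DT in RefSeq, 24.1 kb away, and it rose (2.29, adjusted p = 0.000892).

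**Figure D3:**
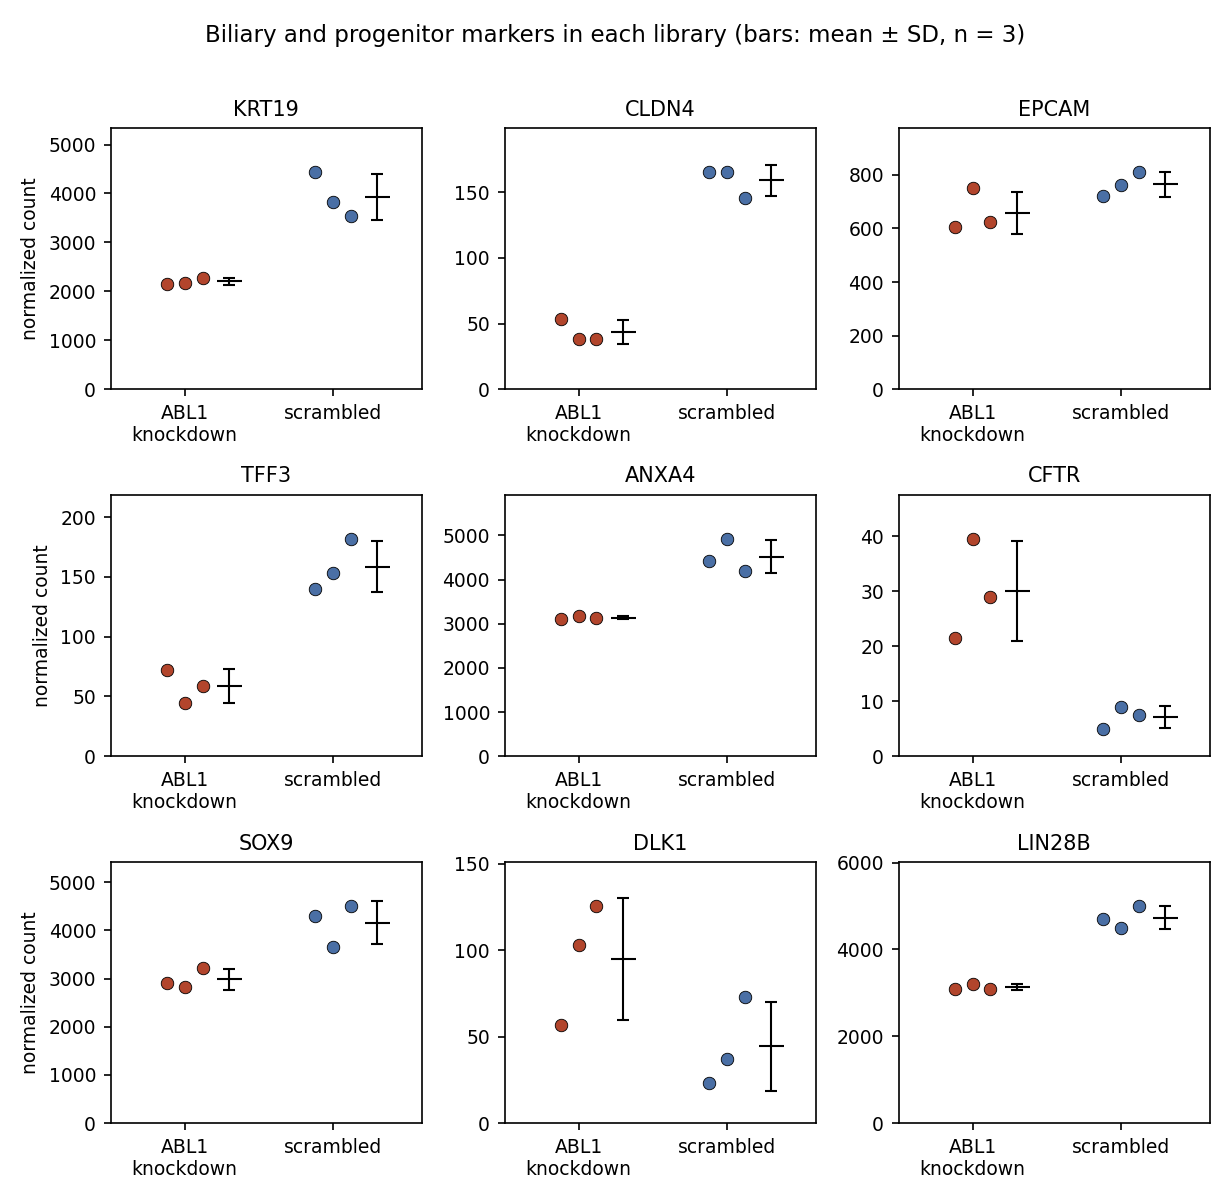
Normalized counts (y axes, each starting at 0 with its own scale) of the 9 markers in every library, ABL1 knockdown left and scrambled right; crosses with bars are mean ± SD, n = 3. KRT19, CLDN4, TFF3, ANXA4, SOX9 and LIN28B are lower in all 3 knockdown libraries, CFTR is higher in all 3, and EPCAM and DLK1 overlap.

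Among secreted and membrane-associated proteins, TFF3 fell. TFF3 encodes trefoil factor 3, a small peptide secreted with mucus that protects epithelium, on chromosome 21 at 42311667 to 42315651, minus strand (NM_003226, 3 exons). It had 72.4, 44.1 and 58.8 normalized counts in the knockdown and 140.1, 154 and 182 in the scrambled libraries. All 3 knockdown libraries lay below every scrambled library. The ratio was 0.367 (log2 change -1.44, SE 0.20, 95% interval -1.88 to -1.01, limma adjusted p = 6.38e-05). The other trefoil genes lie beside it on the same strand, TFF2 at 42346357 to 42351128, 30.7 kb away, and TFF1 at 42362282 to 42366594. TFF2 had 44.0, 30.5 and 36.1 in the knockdown and 125, 149 and 156 in the scrambled libraries (-1.94, adjusted p = 4.28e-06). TFF1 had 29.3, 35.0 and 19.6 in the knockdown and 121, 126 and 134 in the scrambled libraries (-2.18, adjusted p = 5.97e-06). Of 5 tested trefoil factors and mucins beside TFF3, 4 fell and 0 rose by limma, beside 27.4% and 24.5% of all tested transcripts. Rises numbered 0 also at an unadjusted p under 0.05 and by limma voom, and the median was -1.29. The membrane mucins MUC3A (-1.29, adjusted p = 1.28e-06) and MUC13 (-0.92, adjusted p = 0.00351) were the others that fell.

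ANXA4 fell by a small but even amount. Annexin A4 is a calcium-dependent membrane-binding protein of secretory epithelium. Its gene is on chromosome 2 at 69741974 to 69827100, plus strand, and the counted transcript NM_001153 (13 exons) is 1 of 5 RefSeq transcripts, so the row may hold part of the gene's reads. It had 3112, 3170.4 and 3138 normalized counts in the knockdown and 4416, 4929 and 4201 in the scrambled libraries. The knockdown libraries were nearly equal and the lowest scrambled library lay well above them. The ratio was 0.697 (log2 change -0.52, SE 0.07, 95% interval -0.68 to -0.36, limma adjusted p = 9.02e-05). Of 5 other tested annexins 3 rose and 0 fell by limma, where 24.5% of all tested transcripts rose and 27.4% fell. Falls among the 5 numbered 0 also at an unadjusted p under 0.05 and by limma voom, and their median was 0.77. ANXA5, a phosphatidylserine-binding annexin, had 7717, 8157 and 7464 in the knockdown and 4657, 5140.0 and 4753 in the scrambled libraries (0.68, adjusted p = 5.64e-06). ANXA9 (0.77, adjusted p = 4.24e-05) and ANXA1 (0.98, adjusted p = 0.00193) also rose. GMCL1, the tested gene 2.54 kb after ANXA4, fell by more than ANXA4 (-1.48, adjusted p = 9.42e-08), while AAK1, 98.3 kb before it, rose (0.33, adjusted p = 0.00428).

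**Figure D4:**
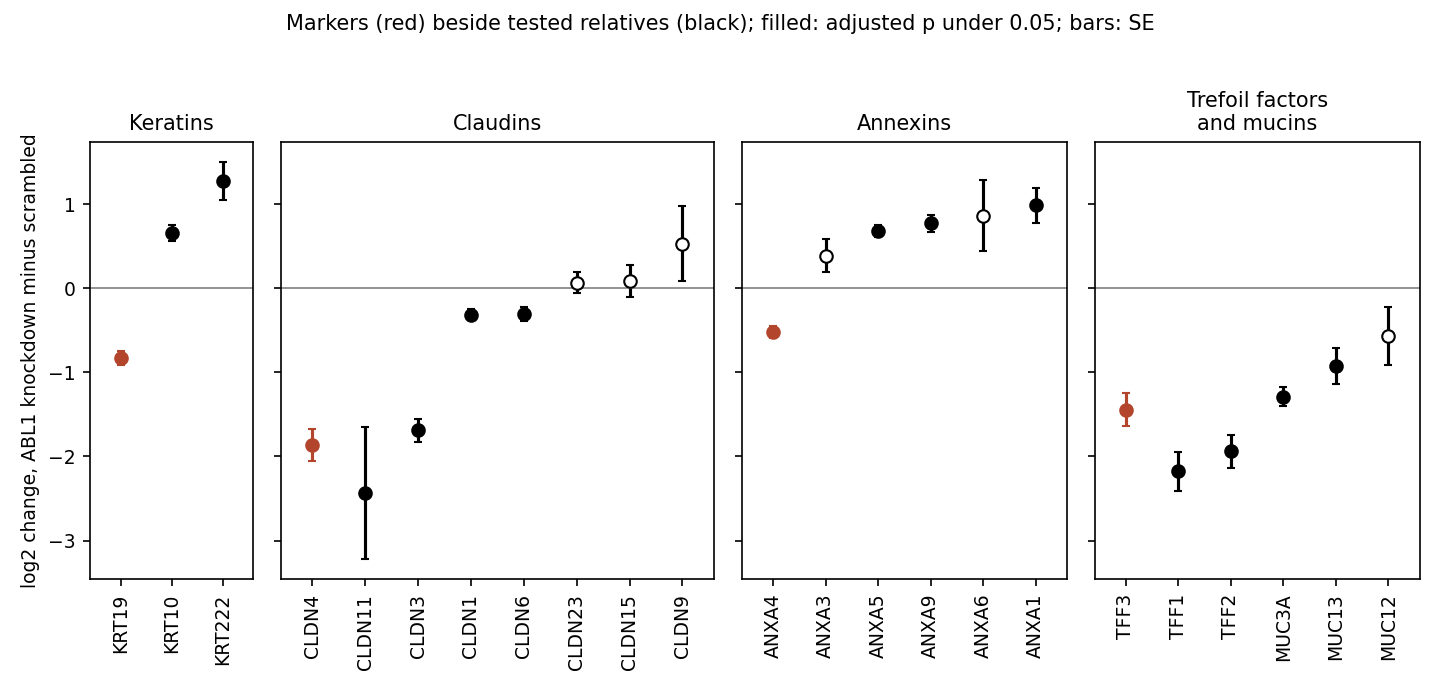
Log2 change (y axis, ABL1 knockdown minus scrambled, bars SE) of KRT19, CLDN4, ANXA4 and TFF3 (red) beside the tested members of their families (black); filled symbols have a limma adjusted p under 0.05. TFF3 and CLDN4 lie beside relatives that also fell (TFF1 -2.18, CLDN3 -1.69), while KRT19 and ANXA4 lie on the other side of 0 from their called relatives (KRT10 0.66, ANXA5 0.68). CLDN1 and CLDN6 were not called with equal library totals.

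CFTR was the marker that rose most, from very few reads. CFTR is the cyclic AMP-regulated chloride channel of the cholangiocyte's apical membrane. The gene is on chromosome 7 at 117479963 to 117668665, plus strand, and NM_000492 has 27 exons. It had 22, 35 and 28 reads in the knockdown and 6, 8 and 8 reads in the scrambled libraries, that is 21.5, 39.6 and 28.9 normalized counts in the knockdown and 5.002, 8.97 and 7.51 in the scrambled libraries. Every knockdown library was above every scrambled library. The log2 change was 1.92 (SE 0.38, 95% interval 1.10 to 2.73, limma adjusted p = 0.000992). Pooled over libraries, 85 reads in the knockdown against 22 in the scrambled group gave a normalized ratio of 4.24, with an exact 95% interval of 2.63 to 7.12 that covers counting error only.

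The transport genes around CFTR did not move in 1 direction. Of 9 tested, 4 fell and 2 rose by limma, where 27.4% of all tested transcripts fell and 24.5% rose. The median log2 change of the 9 was 0.0055. SCTR, the secretin receptor that acts upstream of CFTR in bile ducts, had 160.4, 133 and 124 normalized counts in the knockdown and 261, 249 and 219 in the scrambled libraries (-0.80, adjusted p = 0.000391). The adenylate cyclase ADCY6 (-0.68, adjusted p = 2.56e-05) and SLC9A3R1, a scaffold that binds CFTR (-0.53, adjusted p = 9.84e-05), also fell. The anion exchanger SLC26A6 was called lower on few reads (-0.97, adjusted p = 0.0411), above the minimum mean only through the scrambled libraries, and lost its call with equal library totals (0.0807) and without knockdown replicate 1 (0.122) or 3 (0.0692) or scrambled replicate 1 (0.123), 2 (0.0911) or 3 (0.0620). PRKACA, a catalytic subunit of protein kinase A, was called higher with overlapping groups, 66.5, 181 and 208 in the knockdown and 70.0, 30.3 and 101 in the scrambled libraries (1.17, adjusted p = 0.0391). Its call was lost without knockdown replicate 2 (0.123) or 3 (0.135), scrambled replicate 1 (0.0502) or 2 (0.159), and by limma voom (0.0590). Next to CFTR, CTTNBP2, 42.0 kb after it, rose as well (1.54, adjusted p = 4.79e-05).

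The remaining markers of bile duct epithelium from the list were mixed. Of 6 tested, SCTR and CD9 fell, and the cyst-disease gene PKD2 (0.36, adjusted p = 0.0108) and BICC1 (0.22, adjusted p = 0.0434) rose, with a median of 0.03. The BICC1 call was lost without knockdown replicate 1 (0.126), 2 (0.0634) or 3 (0.0765) or scrambled replicate 2 (0.178). Rises and falls were thus equal in number in this list, where 24.5% of all tested transcripts rose and 27.4% fell. The list's difference from the 9 markers was not tested.

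Among the regulators, SOX9 fell moderately. SOX9 is the transcription factor that marks the ductal plate and progenitor cells. It lies on chromosome 17 at 72121020 to 72126420, plus strand (NM_000346, 3 exons). It had 2909, 2818 and 3225 normalized counts in the knockdown and 4309.5, 3662 and 4518 in the scrambled libraries. The groups did not overlap, though knockdown replicate 3 and scrambled replicate 2 came near each other. The ratio was 0.719 (log2 change -0.48, SE 0.09, 95% interval -0.67 to -0.28, limma adjusted p = 0.000670). The antisense-strand transcript SOX9-AS1, 5.004 kb before SOX9, was also called lower (-1.11, adjusted p = 0.0122), a call lost without scrambled replicate 2 (0.0521).

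Notch-pathway genes, which act on SOX9 during duct formation, were among the regulators that fell. JAG1, the Notch ligand, had 1294, 1264 and 1311 normalized counts in the knockdown and 3119.8, 2953 and 2958 in the scrambled libraries (-1.22, adjusted p = 4.27e-08). The Notch target HES1 had 985, 902 and 1008 in the knockdown and 1367, 1339 and 1358 in the scrambled libraries (-0.49, adjusted p = 0.000188). The forkhead factor FOXA1 fell by 0.48 (adjusted p = 0.00158), the receptor NOTCH2 by 0.27 (adjusted p = 0.00849) and the YAP partner TEAD1 by 0.31 (adjusted p = 0.00656). ONECUT2, a factor of liver and bile duct development, rose (0.39, adjusted p = 0.00254). In all, 5 of 9 tested regulators and partners fell and 1 rose, with a median of -0.27. Among all tested transcripts 27.4% fell and 24.5% rose. With equal library totals 3 of these 9 fell and 3 rose, beside 19.8% and 34.5% of all tested transcripts. NOTCH2 (-0.10, adjusted p = 0.274) and TEAD1 (-0.14, adjusted p = 0.179) were then not called. NOTCH2 was not called after quantile normalization either (-0.17, adjusted p = 0.0615).

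DLK1 rose, but unevenly. DLK1 encodes a transmembrane protein with EGF-like repeats and is an imprinted gene on chromosome 14 at 100726827 to 100738224, plus strand (NM_003836, 5 exons, 1 of 2 RefSeq transcripts). It had 56.7, 103 and 126 normalized counts in the knockdown and 23.3, 37.0 and 73.2 in the scrambled libraries. The groups overlapped, since scrambled replicate 3 lay above knockdown replicate 1. The log2 change was 1.16 (SE 0.37, 95% interval 0.35 to 1.97, limma adjusted p = 0.0203). The call was lost without knockdown replicate 2 (1.06, adjusted p = 0.0599), knockdown replicate 3 (0.92, adjusted p = 0.0751) or scrambled replicate 1 (0.78, adjusted p = 0.0819). Pooled, 271 reads in the knockdown against 139 in the scrambled libraries gave a ratio of 2.14 (exact 95% interval 1.74 to 2.65), which leaves out the spread between libraries. Of 4 other tested imprinted genes, MAGEL2 fell, with 14.7, 15.8 and 11.3 in the knockdown and 45.9, 48.2 and 62.9 in the scrambled libraries (-1.83, adjusted p = 0.000129), and 0 rose by limma, at an unadjusted p under 0.05 or by limma voom. The maternally expressed RNA MEG3 beside DLK1 was not analysed here.

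LIN28B fell in all 3 knockdown libraries. The gene is on chromosome 6 at 104957048 to 105083332, plus strand, and NM_001004317 (4 exons) is 1 of 2 RefSeq transcripts. It had 3095, 3213 and 3081 normalized counts in the knockdown and 4693, 4498 and 5011 in the scrambled libraries. Both groups were tight and stood well apart. The ratio was 0.662 (log2 change -0.60, SE 0.07, 95% interval -0.75 to -0.44, limma adjusted p = 1.57e-05). LIN28A, the paralog with the same let-7 blocking activity, was rare and passed the minimum mean only through the scrambled libraries, with 3.91, 4.52 and 5.16 normalized counts in the knockdown and 20.8, 16.8 and 18.8 in the scrambled libraries (-1.84, adjusted p = 0.00196). LIN28B-AS1, 16.5 kb before LIN28B on the other strand, was called lower (-1.34, adjusted p = 0.0255). That call was lost without knockdown replicate 2 (0.0814) or 3 (0.0552) or scrambled replicate 2 (0.0835) or 3 (0.107).

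The let-7 microRNAs themselves were not analysed here, but several mRNAs known as their targets were. Of 10 tested genes of the LIN28B and let-7 axis 4 fell and 0 rose by limma. Over all tested transcripts 27.4% fell and 24.5% rose. Rises in the list numbered 0 also at an unadjusted p under 0.05 and by limma voom, and its median was -0.27. The cyclin CCND1 had 2171, 2167 and 2153 normalized counts in the knockdown and 6983, 6539.9 and 6795 in the scrambled libraries (-1.65, adjusted p = 3.05e-09). MYC had 574, 550.4 and 608 in the knockdown and 2228, 2161 and 2352 in the scrambled libraries (-1.96, adjusted p = 3.05e-09). The ubiquitin-conjugating enzyme CDC34 fell by 0.44 (adjusted p = 0.00165). LIN28A, above the minimum mean only through the scrambled libraries, was the other that fell. The oncofetal let-7 targets HMGA2, IGF2BP1 and IGF2BP3 were not called. Among 8 other progenitor and oncofetal liver markers, LIN28A, with the same limit, fell, and the median was -0.04. Of these 0 rose by limma, at an unadjusted p under 0.05 or by limma voom. AFP, the classical fetal liver product, was among those not called (adjusted p = 0.454).

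Taking the nearest tested transcript on each side of the 9 genes, 18 in all, 6 rose, 6 fell and 6 were not called, where 24.5% of all tested transcripts rose and 27.4% fell. Of these, 9 were called in the same direction as a called marker beside them and 2 in the other, and the distances ran from 1.90 kb (METTL27) to 1226 kb (DYNC1H1, after DLK1). With so few neighbours these counts are a description, and no test was made of them.

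For each marker the transcript with the nearest profile was found, by Euclidean distance between log2 values centred on their own mean, over 6 libraries and at least 6096 candidates with a mean of 50 or more. LIN28B was nearest to TAF5 (distance 0.0690), SOX9 to NFE2L3 (0.0841), EPCAM to DIEXF (0.0926) and ANXA4 to PGGHG (0.0948). KRT19 was nearest to ARF5 (0.137), CLDN4 to TMEM59L (0.167), TFF3 to SLC22A31 (0.270) and CFTR to SULT1E1 (0.428). DLK1 was nearest to the collagen gene COL2A1 (0.246), which had 61.6, 109.6 and 118 normalized counts in the knockdown and 27.5, 39.2 and 73.2 in the scrambled libraries. COL2A1 had the same order of libraries as DLK1 and the same overlap between groups. The pairs are a description of 6 libraries in 2 groups, where many transcripts share a profile.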

How the data were processed

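The deposited table holds 1 signal value per transcript and library. Per the submitters' processing notes, HISAT2 2.0.4, HTSeq 0.6.1 and hg38 were used, with neither role nor order given. Annotation, strand setting and row filter are not given in the sources. As the values show, the deposited signal is a scaled square root of reads + 0.375; whole reads came back for 100% of rows within 0.05. The normalized count is reads times a step per library, so the authors' own scaling is kept. Rows with a mean of at least 10 (8600 of 10191) were tested with limma 3.58.1 (lmFit, eBayes with trend, R 4.3.3) on log2(normalized count + 1). P-values were two-sided, adjusted by Benjamini-Hochberg over all tested rows, with a threshold of 0.05. The design had expected a normalized signal, so limma on a log scale was the main test. Limma voom on the recovered reads was run as an alternative. Log2 changes understate those of rare transcripts. Depth was 6651413 to 10487862 reads.

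Groups and replicate numbers came from the titles. Within groups, chi-square per degree of freedom was 5.50 to 9.70, so no pair was a duplicate. Gene models are GENCODE 29 on GRCh38; 97.8% of rows matched RefSeq. The fit was run on simulated data of 8437 transcripts. Of 49 changed 1.25-fold 38.8% were recovered, of 49 changed 1.5-fold 73.5% and of 47 changed 2-fold 97.9%, with 7 of 156 calls false. Far fewer transcripts were changed there than the 51.9% called here, so these rates may not carry over. Members and gene lists were chosen with earlier results of these data known. Named genes are the 9 markers, ABL1, up to 4 called members per list by smallest p, and the nearest profile per marker; further list members, neighbours and markers of identity were named after their values were seen. One list member is counted but not reported here by value. Alternatives to pseudocount, filter, scaling, model and threshold, a replicate block and leaving out each library were run. Counting intervals treat reads as independent molecules, which PCR copies are not.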

Additional observations from a re-analysis of the deposited data

How the results depend on the processing

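KRT19, CLDN4, TFF3, ANXA4, SOX9 and LIN28B fell and were called under all 17 alternatives, with log2 changes of -0.90 to -0.65, -2.02 to -1.69, -1.61 to -1.26, -0.57 to -0.35, -0.57 to -0.30 and -0.63 to -0.42. CFTR rose and was called under the 16 that tested it (1.51 to 2.12), but not with a minimum mean of 50, which removes it. The count of markers that rose was 1 with that minimum, 1 at a threshold of 0.01 and 1 to 2 with single libraries left out, where DLK1 ranged from 0.78 to 1.59. EPCAM ranged from -0.32 to -0.16 with single libraries left out and was -0.05 (adjusted p = 0.733) with equal totals. Correlations of same-numbered deviations were 0.047 to 0.077, and those of other-numbered deviations ran from -0.153 to 0.089. With deviations centred within 3 libraries per group, these values cannot tell whether equal replicate numbers mark a shared batch. With the replicate block, EPCAM had a log2 change of -0.22 and was called (adjusted p = 0.0462), 7 markers fell, SLC26A6 was not called (adjusted p = 0.0517), and 2301 transcripts rose and 2520 fell, against 2105 and 2355 without it. With equal totals 2967 rose and 1699 fell, and rises made up 63.6% of calls against 47.2%. DIEXF, not called, had a log2 change of 0.0049 with equal totals, against -0.17. The causes of these differences were not tested. CFTR rests on 85 reads in the knockdown and 22 in the scrambled libraries, so depth limits its precision, while the spread between libraries limits that of DLK1. edgeR and DESeq2 were planned but not run, because the deposited unit is a signal, although limma voom was run on the recovered reads.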
